A study of Mus musculus with 16 samples.

Results

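The vitamin D receptor gene, Vdr, was described through acetylation of lysine 27 on histone H3 (H3K27ac), a mark of active promoters and enhancers, in mouse small-intestinal epithelium. All H3K27ac peaks overlapping a 100 kb window on chromosome 15, from 97670000 to 97770000 on mm9, were taken. The gene lies near 97685000 to 97741000 on the minus strand, an interval not checked here against an annotation of mm9, so it is read from the upper end of this interval towards the lower end. The window held 71 of the 369142 peaks in the 8 libraries. The locus was chosen by its measured pattern, the length covered by peaks in these 8 libraries, so its lengths, peaks and summits are given as a description and no p-value is attached to them.

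The libraries formed 4 groups of 2, described by the series as biological duplicates: intestinal epithelium of E12.5 embryos, intestinal epithelium of E14.5 embryos, adult Lgr5+ intestinal stem cells (ISC) and adult enterocytes. All mice were of a mixed C57BL/6 and CD1 strain. The adult cells came from P60 males carrying an EGFP and Cre-ERT insertion at Lgr5, a gene of crypt stem cells, and the ISC were sorted for high EGFP. The sort of the embryonic cells and of the enterocytes kept cells with the epithelial protein EpCAM and without CD31 and CD45, a gate that holds no marker of its own for enterocytes. The number of animals behind a library is not stated in the labels, and the labelled cell types were not checked against marker genes, because no gene positions on mm9 were used. Depth ran over 34.6 to 54.6 M tags per ChIP library, and the lists had 35614 to 52510 peaks covering 38.8 to 76.1 Mb. The ISC lists differed most in extent, with 51.2 Mb in replicate 1 and 76.1 Mb in replicate 2.

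VDR is a nuclear receptor. It binds calcitriol, the hormonal form of vitamin D, pairs with a retinoid X receptor and activates genes from nearby and distant DNA elements. In the intestine it is known for driving calcium uptake, through target genes such as Trpv6, which encodes the apical calcium channel, and S100g, which encodes a calcium-binding protein of the absorptive cell. Its targets also include Cyp24a1, whose enzyme breaks calcitriol down.

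The sequence before the annotated gene start is shown because adult peaks lay on both sides of the upper end of the gene interval. It is the 250 bases that precede the RefSeq start of Vdr, on the minus strand of GRCm38.p6 at chr15:97908297-97908546, a different build from the mm9 positions used for the peaks. The sequence was not placed on mm9, so whether a peak covers it was not determined. Capitals mark the letters GGGCGG, the core of a GC box, the site bound by SP1-type factors.
Vdr promoter: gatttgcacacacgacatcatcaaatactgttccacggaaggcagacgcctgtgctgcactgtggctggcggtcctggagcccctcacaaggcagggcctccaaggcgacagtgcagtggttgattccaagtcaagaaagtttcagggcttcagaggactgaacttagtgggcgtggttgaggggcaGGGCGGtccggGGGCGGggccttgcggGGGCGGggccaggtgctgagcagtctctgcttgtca

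GGGCGG occurred 3 times in this window, each on the strand of the gene, and 32.7% of 32817 RefSeq promoters of the same length held it at least once on either strand. G and C made up 61.2% of the Vdr letters, against a median of 52.4% over all promoters. Neither the TATA-type motif TATAAA, present in 12.4% of promoters, nor the CCAAT box, present in 33.8%, had a match on either strand. The same was true of the GATA-type motif AGATAA (9.99% of promoters), the CDX-type motif TTTATG (10.8%) and the HNF4-type motif CAAAGTCCA (0.384%). Half-sites of nuclear receptors were searched in 4 spellings. AGTTCA matched once, on the strand opposite to the gene, and is present in 11.9% of promoters. There was no match to AGGTCA (14.0% of promoters), to GGGTCA (11.6%) or to GGTTCA (8.84%). No pair of these half-sites in the same direction with NNN between them was found, an arrangement present in 0.0396% of promoters. These matches describe letters only, and the motifs do not overlap one another here.

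The Vdr window was broadly covered by H3K27ac peaks in both adult cell types and almost bare of them in the embryo. Of the 100 kb, peaks covered 0.265 and 1.78 kb in the E12.5 libraries and 3.38 and 2.42 kb in the E14.5 libraries. In ISC they covered 39.5 and 45.6 kb, and in enterocytes 28.7 and 26.6 kb. The 4 adult libraries averaged 35.1 ± 9.03 kb and the 4 embryonic ones 1.96 ± 1.31 kb (SD, n = 4 each). Every adult library lay above every embryonic one, as it did in 7.97% of all 12765 windows of this size with covered lengths as deposited and in 12.9% with lengths scaled to each library's total. Ordered by group means, ISC stood highest, then enterocytes, E14.5 and E12.5, and no neighbouring groups in this order overlapped in deposited length. With the scaling, enterocytes and ISC did overlap.

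**Figure D1:**
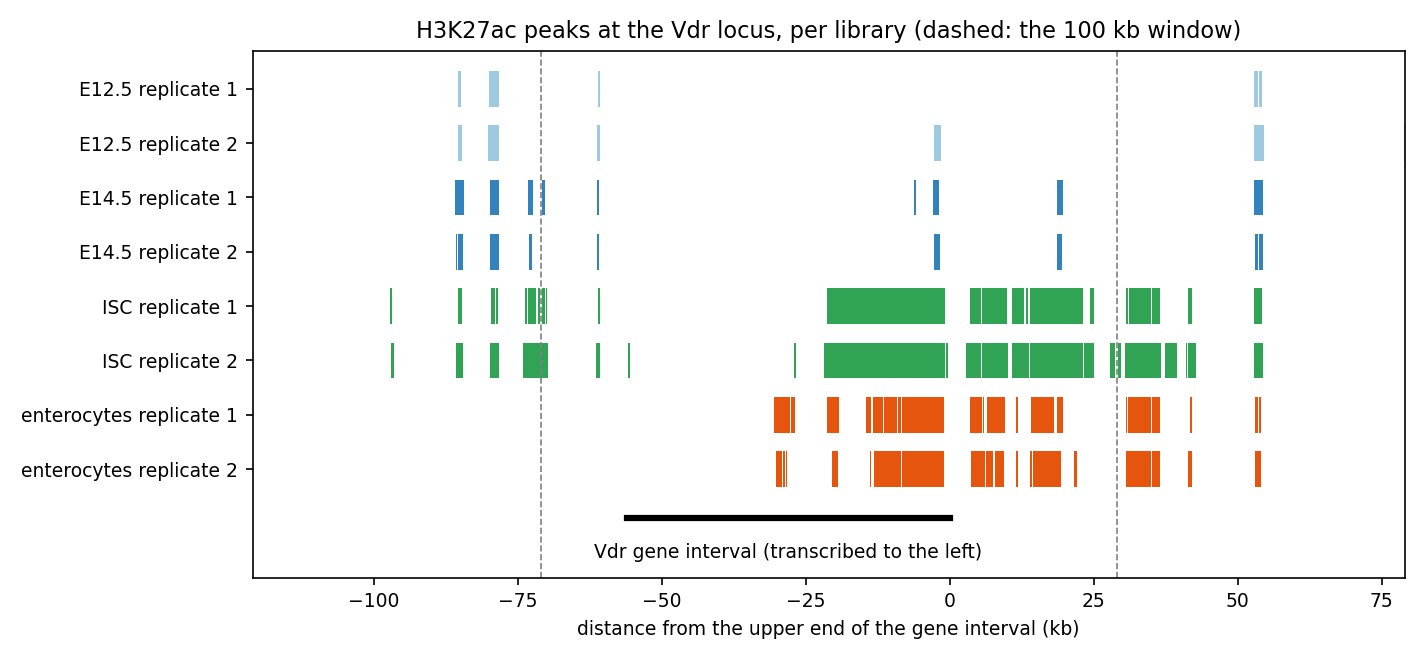
Peaks of each library (bars) along the locus, with the distance in kb from the upper end of the Vdr gene interval on the horizontal axis and 1 row per library. The embryonic rows hold 1 to 5 peaks between the dashed edges of the 100 kb window and the adult rows 13 to 17, in blocks on both sides of the upper end of the gene.

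The map of peaks by library shows where these lengths lay. The number of peaks in the window was 1 and 2 at E12.5, 5 and 3 at E14.5, 14 and 13 in ISC, and 17 and 16 in enterocytes. Peaks of the window were also longer in the adult. Their median length was 1.87 and 1.82 kb in ISC and 1.16 and 1.19 kb in enterocytes. In the embryo it was 0.265 and 0.8885 kb at E12.5 and 0.436 and 0.898 kb at E14.5, from 1 to 5 peaks a library. The medians of the whole adult lists were 0.697 and 0.845 kb in ISC and 0.652 and 0.698 kb in enterocytes. A peak of ISC replicate 2, at 97666990 to 97671316, crossed the lower edge of the window, and the lowest peak wholly inside was at 97670327 to 97670728 in E14.5 replicate 1. Nearest outside were the peaks at 97669598 to 97669854 in ISC replicate 1 and at 97770190 to 97770751 in ISC replicate 2, and the uppermost peak inside ran from 97768827 to 97769659 in ISC replicate 2.

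Near the start of the gene, the adult libraries had a long peak where the embryonic libraries had a short one or none. In the 10 kb around the upper end of the gene interval, peaks covered 0 and 1.22 kb in the E12.5 libraries, 1.14 and 1.02 kb in the E14.5 libraries, 5.60 and 6.62 kb in ISC, and 5.44 and 5.42 kb in enterocytes. The adult libraries all stood above the embryonic ones, and how often other intervals of 10 kb have this order was not computed. E12.5 replicate 1 had no peak there at the authors' threshold, so the 2 E12.5 libraries differed in whether these 10 kb held a peak. A single summit recurred in 6 libraries within 171 bp, between 97738393 and 97738564, inside the gene interval. It was the summit of the longest and strongest peak of the window in E12.5 replicate 2, both E14.5 libraries, both ISC libraries and enterocytes replicate 2. In enterocytes replicate 1 the longest peak covered the same position but had its summit at 97735625.

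The peak that held this position differed in length between the groups. Its length was 1.22 kb in E12.5 replicate 2, 1.14 and 1.02 kb in the E14.5 libraries, 14.3 and 20.9 kb in ISC, and 7.24 and 7.41 kb in enterocytes. In ISC replicate 1 it ran from 97725843 to 97740160 and in ISC replicate 2 from 97719277 to 97740180. The enterocyte peak spanned 97732763 to 97739997 (replicate 1) and 97732675 to 97740086 (replicate 2). The upper ends of all 4 were thus close together, and the lower ends, inside the gene, lay apart. Within their own lists the ISC peaks ranked 20th and 21st by length, and the enterocyte peaks 190th and 142nd. By −log10 q, a score of the authors' peak caller, the strongest peak of the window stood at the 90.6 and 95.6 percentile of the ISC lists and the 95.5 and 90.6 percentile of the enterocyte lists. In the embryonic lists it stood at 26.2 and 47.3 (E12.5) and at 67.5 and 63.6 (E14.5). These places are within each list, and no change between groups is read from them. In E12.5 replicate 1 the value belongs to the only peak of the window, below the gene at 97679979 to 97680243.

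**Figure D2:**
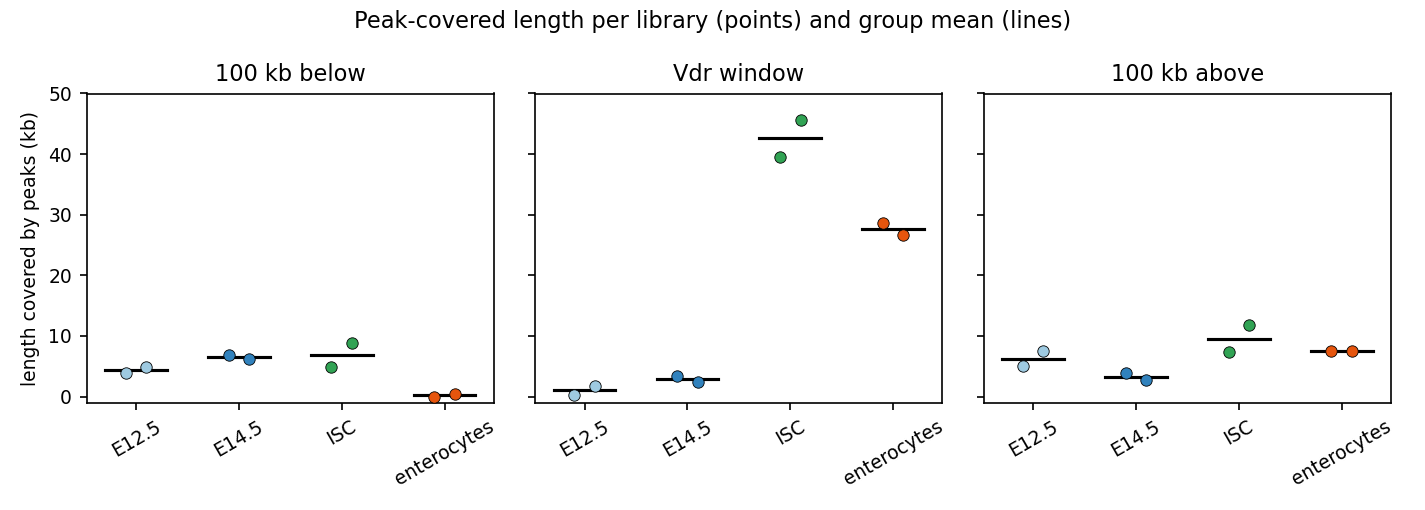
Length covered by peaks (kb, vertical axis) in the Vdr window and in the 100 kb below and above it, for each group; points are libraries and lines are group means. Only the middle panel has libraries above 12 kb, and they are the 4 adult ones.

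From E12.5 to E14.5 the locus changed little in absolute length. The E14.5 libraries averaged 2.90 ± 0.679 kb of covered length and the E12.5 libraries 1.02 ± 1.07 kb (SD, n = 2 each), a difference of 1.88 kb. Both E14.5 libraries lay above both E12.5 libraries, as in 36.5% of all windows as deposited and 30.6% with scaling. The difference was 1.12 kb without E12.5 replicate 1, the library with no peak near the gene start. Of the 4 merged regions (peaks of all 8 libraries joined where they overlapped) with a peak in these libraries, 2 were in both E14.5 libraries and neither E12.5 library, a pattern found in 11.2% of such regions genome-wide. The first was a region across the lower edge of the window, from 97666990 to 97671316, with 1.25 and 0.454 kb at E14.5. The 0.454 kb of E14.5 replicate 2 lay wholly outside the window, at 97667975 to 97668428, so inside the window this region had a peak in 1 of the 2 E14.5 libraries. The second lay above the gene, from 97754883 to 97764211, and held 1.13 and 0.898 kb at E14.5 with summits at 97760412 and 97760323. Where a library had to cover at least 50% of a region to count, 0 regions had this pattern.

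ISC had far more of the window covered than E14.5 epithelium. The mean was 42.6 ± 4.32 kb in ISC and 2.90 ± 0.679 kb in E14.5 epithelium (SD, n = 2 each). The difference of 39.7 kb ranked 3rd of 12765 windows, for a locus chosen by its covered length. Both ISC libraries exceeded both E14.5 libraries, as in 25.1% of windows as deposited and 29.7% with scaling. The E14.5 peaks were places where the ISC cover was also found. Of the bases in peaks, 96.0% in E14.5 replicate 1 and 93.0% in replicate 2 lay within the peaks of ISC replicate 1. For ISC replicate 2 the share was 100% in both. The same shares over the genome were not computed. Among 12 merged regions, 4 were in both ISC libraries and neither E14.5 library, against 9.87% of regions genome-wide, and 0 showed the reverse, which held for 13.2% genome-wide. All 4 lay above the gene, and the longest ran from 97743930 to 97751121 with 6.08 and 6.95 kb of peak in ISC. Beside it, the regions from 97751847 to 97753859, from 97753968 to 97754740 and from 97764272 to 97766089 held 1.92 and 2.01 kb, 0.429 and 0.773 kb, and 0.618 and 1.82 kb in ISC.

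**Figure D3:**
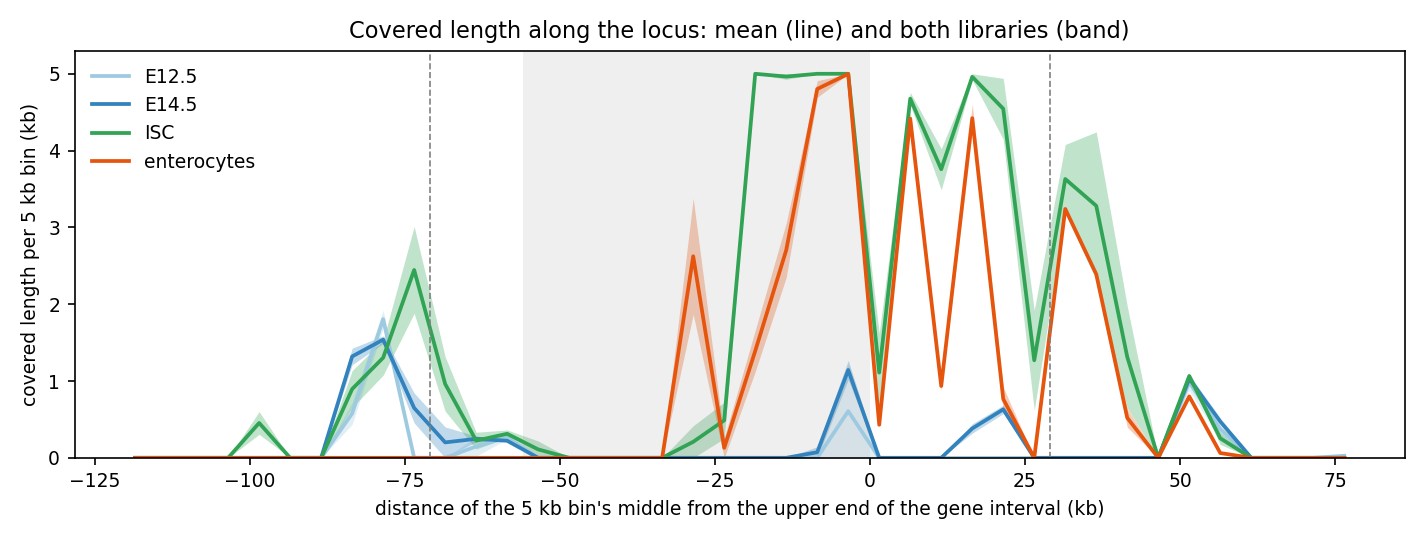
Covered length per 5 kb bin (vertical axis) against the distance of the bin's middle from the upper end of the gene interval (horizontal axis, kb); lines are group means, bands span the 2 libraries, and the grey area is the gene interval. ISC bins reach the full 5 kb over the upper part of the gene, enterocytes reach it only next to the gene start, and both E14.5 libraries stay at or under 1.27 kb inside the dashed window.

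The adult cover was unevenly spread along the gene, as the profile in 5 kb bins shows. In the gene interval, 36.3 and 39.1% of the bases were in peaks in ISC, 32.2 and 27.4% in enterocytes, 2.53 and 1.82% in the E14.5 libraries, and 0 and 2.17% in the E12.5 libraries. Apart from 0.219 kb at 97685236 to 97685454 in ISC replicate 2, all of this lay at or above 97710464, towards the start of the gene. Between 97685455 and 97710463, a stretch of 25.0 kb in the later part of the gene, no library had a peak. The 29 kb above the gene, upstream of its start, were denser: 62.8 and 74.9% of the bases in ISC and 36.6 and 38.8% in enterocytes were in peaks, against 3.89 and 3.10% in the E14.5 libraries. The E12.5 libraries had no peak there. A gap of 3.24 kb without a peak in any library, from 97740694 to 97743929, separated the cover of the gene from the cover upstream.

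Upstream of the gene, 3 summits recurred in all 4 adult libraries and in no embryonic one. They fell between 97745394 and 97745519, between 97747880 and 97748277, and between 97758107 and 97758289. How often summits recur in this way over the genome was not computed. Over all 71 peaks, summits joined at steps of at most 300 bp formed 38 positions, of which 22 occurred in a single library, 8 in 2, 3 in 3, 3 in 4 and 2 in 6. The second position shared by 6 libraries lay below the gene, between 97679884 and 97680126, and was present in all embryonic and ISC libraries and absent from both enterocyte libraries.

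Enterocytes, which descend from ISC, had less of the window in peaks than ISC when lengths were taken as deposited, but not after scaling. The means were 27.6 ± 1.47 kb in enterocytes and 42.6 ± 4.32 kb in ISC (SD, n = 2 each), a difference of −15.0 kb. Both enterocyte libraries lay below both ISC libraries, as in 55.8% of all windows. Scaled to each library's total peak length, the window held 39.7 and 36.8 kb in enterocytes and 41.5 and 32.3 kb in ISC. The libraries of the 2 groups then overlapped, and the difference was 1.38 kb with the opposite sign. The direction between enterocytes and ISC at this locus therefore rests on the choice of scale, while that between adult and embryo held on both.

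**Figure D4:**
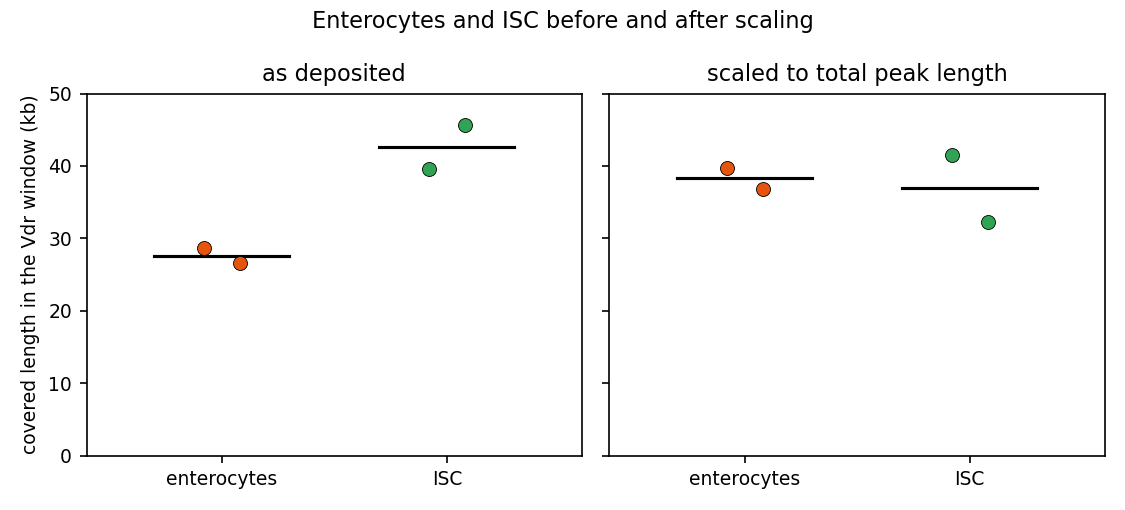
Covered length of the Vdr window (kb, vertical axis) in enterocytes and ISC, as deposited (left) and scaled to each library's total peak length (right); points are libraries and lines are means. The groups are apart on the left and overlap on the right, where ISC replicate 2, with 32.3 kb, is the lowest.

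In the lists as deposited, the 2 adult cell types shared most of their cover but differed in its shape. The ISC lists covered more of the genome, 51.2 and 76.1 Mb, than the enterocyte lists, each with 38.8 Mb. What part this had in the difference of shape was not tested. Bases in peaks of all 4 adult libraries came to 22.4 kb. They were part of the 24.5 kb in both enterocyte libraries, of which 1.98 kb was in neither ISC library. A further 12.7 kb was in both ISC libraries and in no enterocyte library. Measured as the Jaccard index (bases in both libraries divided by bases in at least 1 of them), the enterocyte replicates scored 0.797 and the ISC replicates 0.866, and the 4 pairs of an enterocyte and an ISC library 0.513 to 0.584. The 16 pairs of an adult and an embryonic library reached at most 0.0822.

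The stretch that only enterocytes carried lay inside the gene. The merged region from 97710464 to 97713257 had 2.79 and 1.87 kb of peak in enterocytes and none in the ISC, E14.5 or E12.5 libraries. It was the single region at the locus present in both enterocyte libraries and neither ISC library, a pattern of 5.88% of regions genome-wide. In the reverse direction, 4 of 13 regions were in both ISC libraries and neither enterocyte library, against 18.4% genome-wide. Those were the pair of regions below the gene, at 97666990 to 97671316 and at 97679668 to 97680363, and the upstream regions at 97753968 to 97754740 and at 97764272 to 97766089. In the large region from 97719277 to 97740180, enterocytes covered 14.7 and 13.5 kb in several peaks and ISC covered 20.3 and 20.9 kb in nearly continuous ones. When peaks within 1 kb were joined, the longest stretch of the window was 13.5 and 13.0 kb in enterocytes and 20.5 and 22.2 kb in ISC.

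Over adult and embryo together, 2 of the 13 merged regions were in all 4 adult and no embryonic library, a pattern of 1.95% of regions genome-wide, and 0 were in all embryonic and no adult library, the reverse pattern, which 5.08% of regions had. These were the upstream regions from 97743930 to 97751121, with 5.38 and 5.31 kb in enterocytes, and from 97751847 to 97753859, with 0.371 and 0.416 kb in enterocytes. The ISC cover of both is given above. With only peaks of −log10 q of at least 10, the count was 1. No base of the window was in a peak of an embryonic library without also being in a peak of an adult one. How often other windows show this was not computed.

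Set against the rest of the genome, the window stood near the top of the ranking in the adult and around its middle or below in the embryo. Among 12765 windows of 100 kb with a peak in at least 2 libraries, its covered length stood at the 19.5 and 38.0 percentile in the E12.5 libraries and the 56.2 and 50.2 percentile in the E14.5 libraries. In ISC it ranked 15th and 34th from the top, and in enterocytes 54th and 68th. The difference between adult and embryo, 35.8 kb after scaling, was the 2nd largest of all windows in the direction of the adult, and the median window had −0.278 kb. The locus was chosen by its covered length and the windows were laid to fit it, so these ranks are a description only. The window ranked 1st, also on chromosome 15 from 85470001 to 85570000, averaged 45.2 ± 4.32 kb in ISC, 36.7 ± 0.593 kb in enterocytes, 2.65 ± 0.232 kb in E14.5 and 1.41 ± 0.491 kb in E12.5 epithelium (SD, n = 2 each). The window ranked next after Vdr, on chromosome 12 from 103870001 to 103970000, differed by 29.3 kb.

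**Figure D5:**
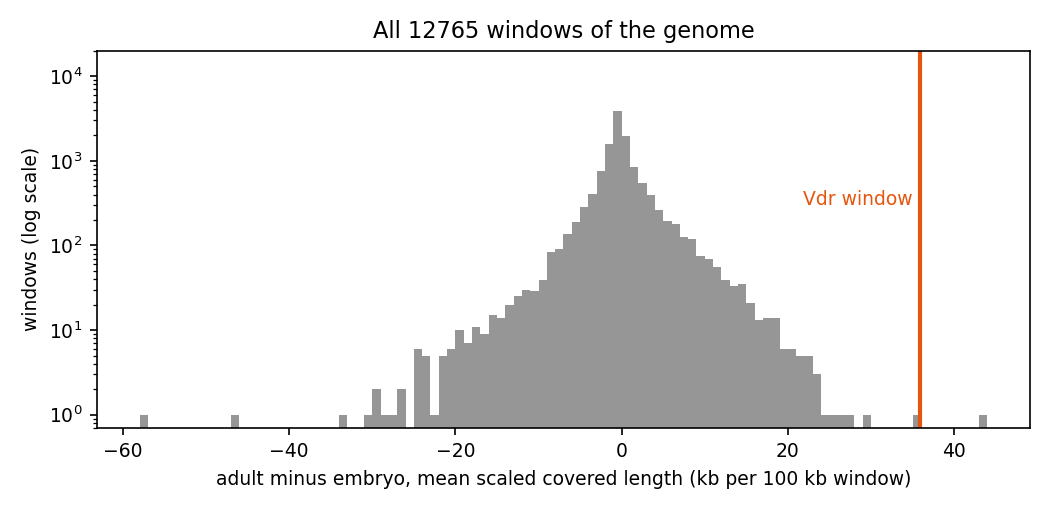
Number of 100 kb windows (vertical axis, log scale) by the mean scaled covered length in the 4 adult libraries minus that in the 4 embryonic ones (horizontal axis, kb), in bins of 1 kb. The Vdr window, chosen by its covered length and marked by the line at 35.8 kb, lies beyond all but 1 of the 12765 windows.

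The histogram of all windows places this difference. The 5 windows whose profile over the 8 libraries was most like that of Vdr covered less of their length in ISC and in enterocytes. By Pearson correlation of log2(scaled covered bp + 500) with Vdr, among 3040 other windows with at least 10 kb in some library, the closest was on chromosome 9 from 122170001 to 122270000 (r = 0.996). It had 16.1 ± 3.48 kb in ISC, 10.0 ± 0.516 kb in enterocytes, 3.53 ± 0.0141 kb in E14.5 and 1.99 ± 0.984 kb in E12.5 epithelium (SD, n = 2 each). The next were on chromosome 8 from 26170001 to 26270000 (r = 0.995), chromosome 9 from 44970001 to 45070000 (r = 0.995), chromosome 17 from 34370001 to 34470000 (r = 0.988) and chromosome 11 from 115570001 to 115670000 (r = 0.988). The last of these averaged 16.6 ± 4.47 kb in ISC, 10.3 ± 0.637 kb in enterocytes, 10.8 ± 1.67 kb in E14.5 and 7.67 ± 1.97 kb in E12.5 epithelium (SD, n = 2 each). Its enterocyte cover was thus not above that of E14.5 in deposited length. The scaling used for the correlation multiplies both enterocyte libraries by 1.39 and the E14.5 libraries by 0.827 and 0.945, so that order holds for deposited lengths only. Replicates share their group in these correlations, so the 8 points are not independent, and the choice depends on the added length and on the scaling: 2 of these 5 windows stayed among the closest with 5000 bp in place of 500, and 2 with lengths as deposited.

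Above the upper edge of the window, cover was found again in both adult cell types. The last 5 kb inside that edge held 0.618 and 1.92 kb in ISC and 0 kb in both enterocyte libraries. Past the lower edge there was ISC but no enterocyte cover. The 5 kb just below the window held 1.88 and 3.01 kb in ISC, 0.844 and 0.454 kb in the E14.5 libraries, and 0 kb in both enterocyte libraries. Above the window, a region from 97771483 to 97777674 held 5.50 and 6.19 kb in ISC and 5.64 and 5.63 kb in enterocytes, and none in any embryonic library. A shorter one from 97782323 to 97783340 was likewise in all 4 adult libraries and no embryonic one. Farther up, the region from 97793904 to 97795525 was in all 8 libraries. In the RefSeq gene order of GRCm38.p6 the next protein-coding genes above Vdr are Tmem106c and then Col2a1, the gene of cartilage collagen, and the next below it is Hdac7, which encodes a histone deacetylase. The lncRNA genes Gm33690 and Gm52171 overlap Vdr in that annotation, and a peak list cannot assign a mark to one of overlapping genes.

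In the 100 kb below the window, on the side of Hdac7, the order of groups was another one. Peaks there covered 0 and 0.455 kb in enterocytes, 4.93 and 8.75 kb in ISC, 6.89 and 6.20 kb in the E14.5 libraries, and 3.85 and 4.86 kb in the E12.5 libraries. Enterocytes were lowest there in deposited length, and below ISC as in 55.8% of all windows. ISC overlapped E14.5 and lay narrowly above E12.5, with 4.93 kb in ISC replicate 1 and 4.86 kb in E12.5 replicate 2. Shares of windows with the other orders were not computed. Enterocytes were also lowest in the 15 kb of the Vdr window below the gene, where they had no peak. There, peaks covered 0.985 and 2.01 kb in ISC, 0.838 and 0.503 kb in the E14.5 libraries, and 0.265 and 0.562 kb in the E12.5 libraries.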

How the data were processed

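H3K27ac ChIP-seq peak lists of 8 libraries were used, and the 8 inputs served as their background. The tools named in the submitters' processing notes are Bowtie 1.1.2, SAMtools 1.2, bcl2fastq 1.8.4 and MACS2, with mm9 as the build. Per the file headers, MACS 2.1.0.20140616 called peaks for each library against its own input, with broad calling off, a q-value cutoff of 0.05 and 1 tag kept per position. The deposited pileup signal, −log10 p and q values and fold enrichment ratio are MACS output, of which the −log10 q was used here, only to rank or filter within a list; peak length is in bp, as deposited. No counts per region were used, so no counting interval is given and precision rests on 2 libraries a group.

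Covered length was the union of a library's peaks in the window. Regions were peaks of all 8 libraries merged where they overlapped or touched, and 1 bp counted as presence. Windows of 100 kb were laid over the genome so that 1 of them is the Vdr window. For scaling, lengths were multiplied by the mean total covered length over that of the library. Interval code was tested on simulated peaks (Python 3.11.15, pandas 2.3.3, numpy 2.4.6). The gene, window and motifs were chosen with earlier results of these data known. The joining of summits at 300 bp, the 10 kb around the upper end of the gene interval, the region gaps, the regions beyond the window and the ranking of windows were added with these peak lists in view. The rule for naming took every merged region of the window, the neighbouring genes and the 5 most similar windows. Vitamin D pathway genes and cell type markers listed for the study were not analysed here, because the gene table is on GRCm38.p6 and positions were not converted.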

Additional observations from a re-analysis of the deposited data

Results flagged for a closer look

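In groups of 4 libraries, a library was singled out where its gap to the nearest other took a share of the range above Dixon's critical value, which chance gives in about 1 of 20 groups. It occurred 3 times in 24 groups examined. The rate of 1 in 20 is for values of a single kind. Each group here joined ISC with enterocytes, or E12.5 with E14.5, and some intervals overlapped, so the rate may not hold. ISC replicate 2 had 6.62 kb of peak in the 10 kb around the upper end of the gene interval, where the other 3 adult libraries had 5.42 to 5.60 kb. In the same 10 kb, E12.5 replicate 1 had 0 kb and the other 3 embryonic libraries 1.02 to 1.22 kb. In the 100 kb above the Vdr window, ISC replicate 2 had 11.7 kb and the other adult libraries 7.37 to 7.49 kb. ISC replicate 2 also had the greatest total peak length of all 8 libraries, 76.1 Mb, and its part in these values was not tested.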

How the results depend on the processing

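The difference in covered length between adult and embryo was 33.1 kb and kept its direction under all alternatives: 18.0 kb in the gene interval alone, and 29.6 to 36.0 kb with a library left out. ISC minus E14.5 was 34.4 kb with scaling, 19.9 kb in the gene interval and 49.3 kb with the window widened by 50 kb on each side (36.6 to 42.7 kb with a library left out). For enterocytes minus ISC the scaled value was 1.38 kb, the reverse of −15.0 kb as deposited, while the gene interval gave −4.43 kb, the widened window −22.6 kb and leaving out a library −18.0 to −11.9 kb. E14.5 minus E12.5 was 0.609 kb in the gene interval, 3.12 kb in the widened window and 1.12 to 2.64 kb with a library left out. Intervals of other size hold other lengths by construction. Keeping only peaks with −log10 q of at least 10, or the same 35614 peaks per library, moved none of the 4 differences by more than their pooled SD. For adult minus embryo that SD, 6.46 kb, also holds the distance of ISC from enterocytes and of E12.5 from E14.5, so it is wider than a spread between replicates. With that stricter threshold E12.5 had no peak left in the window. Of the 90 alternative values for single groups, regions and likeness, 75 stayed within the spread or within 1.5 times. That count includes group values with 1 of the 2 libraries left out, which cannot leave the spread of 2 libraries. They say nothing on stability: cover near the gene start at E12.5 was 0.608 kb, and 0 or 1.22 kb with a library left out. No paired analysis was possible because the values at the locus come from no test.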
